A study of Mus musculus with 12 samples.

Results

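Imprinted genes of the mouse were followed across embryonic fibroblasts, fibroblasts treated with a mixture that included Dnmt1 knockdown, and germ cells. The 40 genes were listed by name as known imprinted genes, and a gene's probes were taken through the RefSeq accession that the scanner files give. Of the 40, 39 had a probe, among 19711 genes named on the array. H19 had no matched probe and has no value here. By textbook knowledge, 21 of the 40 are expressed from the paternal copy, 17 from the maternal copy, and for Grb10 and Gnas the expressed copy depends on the transcript or tissue. Each gene is described by its brightest probe unless stated otherwise.

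The study asked whether germ cell genes can be switched on in mouse embryonic fibroblasts (MEFs) by removing repressive epigenetic marks, and measured RNA on 12 single-colour Agilent microarrays, 3 in each of 4 groups. Control MEFs were male cells from crosses of C57BL6/J mice carrying a Vasa::RFP transgene with C57BL6/J mice carrying Oct4_delta_PE-GFP. The OS+chem+VA5+Dnmt1 KD group and the OCKS+chem+VA5+Dnmt1 KD group were MEFs of that cross at day 4 of treatment, called OS and OCKS here. The PGC group was primordial germ cells of female E15.5 genital ridges from a cross of MCH with C57BL6/J mice carrying Oct4_delta_PE-GFP. OS stands for vectors that express Oct4 and Sox2, and OCKS for a tandem vector of Oct4, c-Myc, Klf4 and Sox2. The treatment called chem is tranylcypromine, BIX-01294 and DZNep, inhibitors of H3K4 demethylation, H3K9 methylation and H3K27 methylation, and VA5 is valproic acid, a histone deacetylase inhibitor, with a TGF-β receptor inhibitor. Vectors and the siRNA against Dnmt1 were delivered by transfection. In the paper's test with a fluorescent reporter plasmid only part of the MEFs expressed it, so a culture is a mixture of cells. Treated MEFs differed from control MEFs in all of these agents at once, and the part of Dnmt1 knockdown cannot be told apart from the rest. The sources used here do not say whether the control MEFs of the arrays were transfected. The methods give alternative media without saying which group had which. The PGC group differed from the MEFs in sex, cross and age as well as in cell type, and how its cells were purified for the arrays is not given in the sources used here.

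An imprinted gene is transcribed mainly or only from the copy inherited from a given parent. The choice rests on control regions whose DNA is methylated on the mother's or on the father's copy only, and at some loci on a non-coding RNA or histone mark that such a region governs. DNMT1, the maintenance DNA methyltransferase, copies the methylation onto the new strand after replication, ZFP57 binds the methylated copy and protects it in early embryos, and primordial germ cells erase the marks of both parents before new ones are laid down. Many members are growth regulators of the placenta and fetus, and several are imprinted only in placenta or brain, so that fibroblasts may use both of their copies. An array signal sums the copies of both parents.

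Levels are given on the log2 scale as a probe's signal relative to the 75th percentile of the probes of its array, so that 0 marks that percentile. Probes differ in brightness, so a level is compared only with the same probe on other arrays. A test was made only for genes whose probe stood well above its background on each of the 3 arrays of either group compared. "Rose" and "fell" mark genes past an adjusted p of 0.001 (limma with Benjamini-Hochberg adjustment over all genes tested) and a change of at least 2-fold. In bulk RNA, fewer cells of a type and less RNA per cell cannot be told apart. The methods describe the arrays of a group as biological replicates, and p-values measure the spread between them. That spread was estimated jointly over all 4 groups, so arrays outside a comparison also enter its p-values.

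The 75th percentile signal ran from 1049.7 to 2708 intensity units per array, the median background from 23 to 33.5, and 71.9% to 85.6% of spots were well above background. Fibroblast markers, 8 genes, summed to 661 to 1004 times the array's 75th percentile in control MEFs, 312 to 381 in OS, 316 to 423 in OCKS and 15.6 to 15.8 in PGC. Germ cell markers, 8 genes that include the transfected Pou5f1 (Oct4), summed to 0.158 to 0.176, 2.06 to 3.36, 2.45 to 3.46 and 127 to 165 in the same order. All 8 fibroblast markers fell and all 8 germ cell markers rose in PGC against control MEFs. Gonadal somatic markers, 6 genes, summed to 26.2 to 30.3 in PGC and to 32.3 to 35.5 in control MEFs, sums carried by Foxl2 and Fst. Of these 6 genes, 4 rose in PGC (Wt1, Gata4, Nr5a1 and Amhr2) and 1 fell (Fst), and their part in the PGC values was not tested. Leukocyte markers, 5 genes, summed to 2.35 to 5.04 in control MEFs but at most 0.166 in either treatment and 0.745 in PGC. The 5 leukocyte markers fell in OS and in OCKS. The 12 arrays lay on 6 slides, none of which held both treated and control MEFs, so slide and treatment cannot be told apart.

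Dnmt1, the knockdown target, was at -1.08, -0.87 and -1.23 in control MEFs. It was at -2.86, -3.11 and -3.35 in OS, at -3.70, -3.10 and -3.39 in OCKS, and at 0.16, -0.01 and 0.06 in PGC. All treated arrays lay below all control arrays, and all PGC arrays above them. Dnmt1 fell by 2.05 on the log2 scale in OS (4.14-fold, SE 0.168, adjusted p = 2.35e-06) and by 2.34 in OCKS (5.06-fold, SE 0.168, adjusted p = 8.46e-07). In PGC it rose by 1.13 (2.18-fold, SE 0.170, adjusted p = 9.23e-05). OCKS and OS differed in Dnmt1 by -0.29 (adjusted p = 0.387).

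The promoters shown are those of members that passed the thresholds in the same direction in OS and in OCKS, which share their 3 control arrays, and that the RefSeq table (GRCm38.p6) holds. Sgce passed too and has no entry. The 250 bases upstream of the start are printed for the 8 genes to show how many CpG dinucleotides, the letters DNMT1 acts on, each promoter holds. Capitals mark CpG. Where a gene has several starts, the one with the most CpG is shown, and the table does not say which start the transcript under the array probe uses.
Dio3 (chr12:110278980-110279229, plus strand): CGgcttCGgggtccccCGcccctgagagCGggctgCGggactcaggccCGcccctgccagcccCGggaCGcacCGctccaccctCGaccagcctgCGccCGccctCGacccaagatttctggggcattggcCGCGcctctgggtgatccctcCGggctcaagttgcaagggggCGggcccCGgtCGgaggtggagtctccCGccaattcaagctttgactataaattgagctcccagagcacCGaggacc
Ascl2 (chr7:142969265-142969514, minus strand): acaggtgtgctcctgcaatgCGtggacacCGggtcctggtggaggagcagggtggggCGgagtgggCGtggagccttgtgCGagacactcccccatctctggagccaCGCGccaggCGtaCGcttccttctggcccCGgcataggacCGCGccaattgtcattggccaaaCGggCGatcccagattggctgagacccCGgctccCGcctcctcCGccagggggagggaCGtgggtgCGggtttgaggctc
Ppp1r9a (chr6:4903061-4903310, plus strand): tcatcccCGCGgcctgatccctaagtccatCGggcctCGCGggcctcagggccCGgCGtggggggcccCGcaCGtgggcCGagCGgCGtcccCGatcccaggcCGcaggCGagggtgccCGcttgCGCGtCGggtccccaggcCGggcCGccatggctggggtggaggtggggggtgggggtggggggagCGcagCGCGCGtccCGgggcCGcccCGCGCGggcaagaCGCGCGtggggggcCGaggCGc
Asb4 (chr6:5390160-5390409, plus strand): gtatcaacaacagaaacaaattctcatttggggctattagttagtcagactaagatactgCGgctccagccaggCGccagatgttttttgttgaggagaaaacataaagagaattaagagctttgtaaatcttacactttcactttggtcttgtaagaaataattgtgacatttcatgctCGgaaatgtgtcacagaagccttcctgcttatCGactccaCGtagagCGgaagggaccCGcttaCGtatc
Zrsr1 (chr11:22971755-22972004, plus strand): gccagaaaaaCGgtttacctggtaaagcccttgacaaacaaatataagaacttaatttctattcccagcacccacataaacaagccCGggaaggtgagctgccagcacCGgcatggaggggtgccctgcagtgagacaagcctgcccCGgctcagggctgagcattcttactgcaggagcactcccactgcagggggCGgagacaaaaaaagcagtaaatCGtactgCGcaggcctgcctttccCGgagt
Grb10 (chr11:12037421-12037670, minus strand): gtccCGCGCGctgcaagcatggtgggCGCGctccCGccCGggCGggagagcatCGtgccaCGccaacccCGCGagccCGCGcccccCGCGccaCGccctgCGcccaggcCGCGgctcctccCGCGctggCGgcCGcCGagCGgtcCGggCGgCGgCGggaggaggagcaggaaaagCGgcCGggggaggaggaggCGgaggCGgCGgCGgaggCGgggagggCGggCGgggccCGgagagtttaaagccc
Gnas (chr2:174329756-174330005, plus strand): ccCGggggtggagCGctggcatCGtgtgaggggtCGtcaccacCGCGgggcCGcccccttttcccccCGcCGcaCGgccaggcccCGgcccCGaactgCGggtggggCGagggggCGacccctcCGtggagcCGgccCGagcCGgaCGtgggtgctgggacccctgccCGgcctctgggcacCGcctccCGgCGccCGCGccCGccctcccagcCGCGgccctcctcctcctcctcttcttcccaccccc
Peg12 (chr7:62464511-62464760, minus strand): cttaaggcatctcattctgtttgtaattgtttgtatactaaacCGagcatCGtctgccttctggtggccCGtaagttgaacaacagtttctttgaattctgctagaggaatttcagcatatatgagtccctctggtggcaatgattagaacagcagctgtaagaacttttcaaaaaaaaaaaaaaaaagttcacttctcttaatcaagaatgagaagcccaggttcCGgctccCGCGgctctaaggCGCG

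The 32851 promoters of the table had a median of 6 CpG in these 250 bases, and the 54 promoters of the 34 members with an entry had a median of 11. Of the 4 that rose in both treatments, Dio3 held 21 CpG, Ascl2 19, Ppp1r9a 35 and Asb4 8. Of the 4 that fell, Grb10 held 40, Gnas 29, Zrsr1 8 and Peg12 8. At the start with the most CpG, dense and sparse promoters thus occurred on both sides. The start with the fewest held 8 in Ppp1r9a, 4 in Asb4, 8 in Grb10 and 14 in Gnas. As many CpG as in Ppp1r9a were held by 2.97% of all promoters, as many as in Grb10 by 1.31%, and as many as in Asb4, Zrsr1 or Peg12 by 43.0%. The hexamer TGCCGC, searched on both strands, is the motif that ZFP57 binds when its CpG is methylated. None of the 8 windows held it, while 14.8% of the members' promoters and 8.68% of all promoters did. A window without the letters says nothing about binding elsewhere at the locus.

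In OS, 5 of 36 members tested rose and 7 fell against control MEFs, where 10.9% of the 16247 genes tested rose and 12.8% fell. In OCKS, 6 of 36 rose and 7 fell, where 11.3% of 16141 genes rose and 14.1% fell. The median log2 change over the members was -0.37 in OS and -0.30 in OCKS, beside -0.19 and -0.17 over all genes tested. Most members, 24 in OS and 23 in OCKS, did not pass the thresholds. Of the 39 members with a probe, 29 had no overlap between OS and control arrays, and 28 none between OCKS and control arrays. The share of such genes over the whole array was not computed. Paternally expressed members gave 2 rises and 4 falls of 20 in each treatment, with a median of -0.27 in OS and -0.30 in OCKS. Maternally expressed members gave 3 rises and 1 fall of 14 in OS (median -0.36), and 4 rises and 1 fall of 14 in OCKS (median -0.24). The falls depended on the scaling. With arrays scaled on their 8 spike-in probes, the median of all genes was 0.61 in OS and 0.15 in OCKS, 9 members rose and 0 fell in OS (3 were lower at an unadjusted p under 0.05 with limma), and 2 fell in OCKS. That scaling called 4340 genes higher and 643 lower in OS, against 1770 and 2087 with the 75th percentile, and 2428 higher and 1226 lower in OCKS, against 1832 and 2282.

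**Figure D1:**
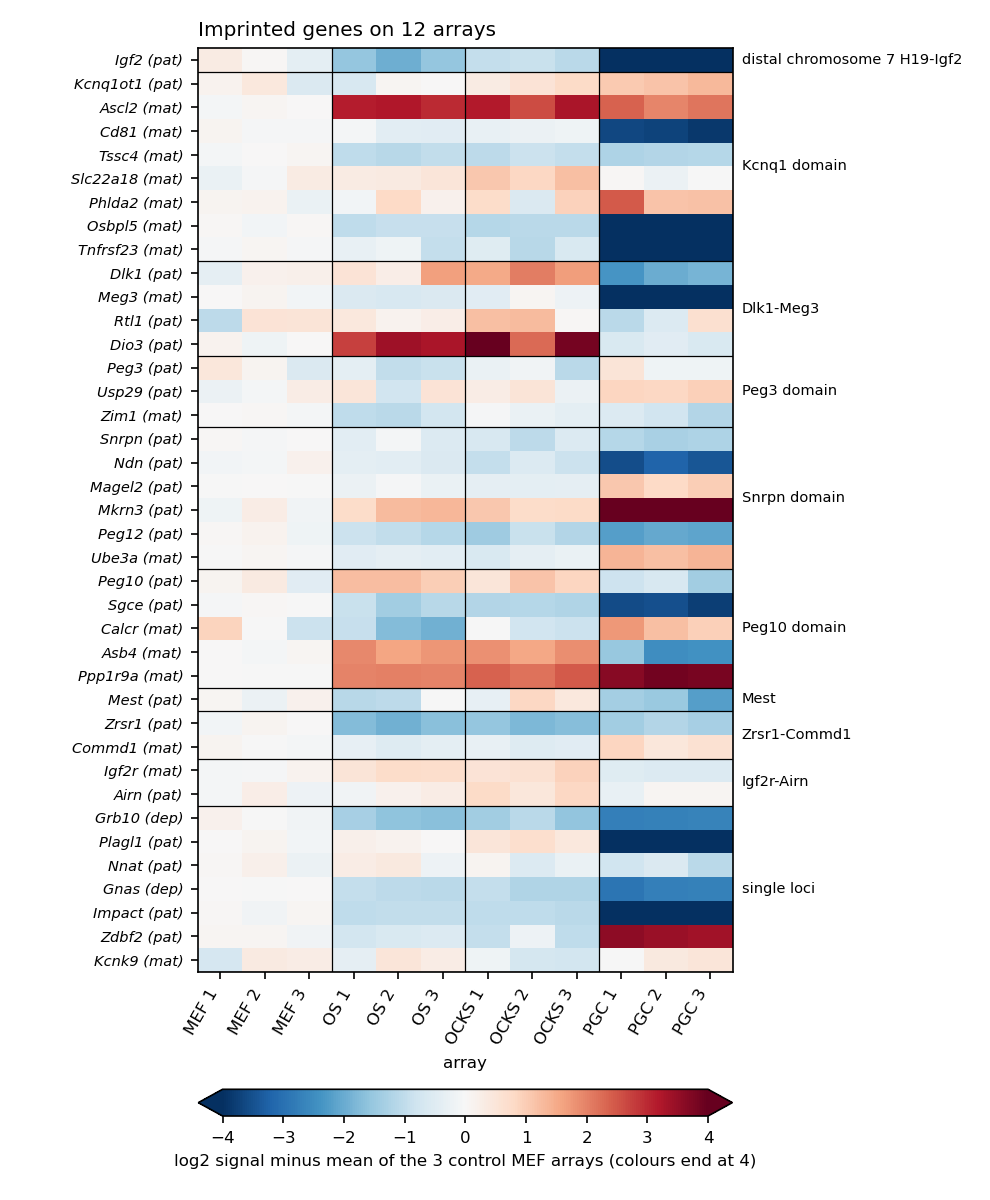
Level of each imprinted gene (rows) on each of the 12 arrays (columns) relative to the gene's mean over the 3 control MEF arrays, on the log2 scale; rows are grouped by chromosome cluster, blue is lower, red is higher and colours end at 4. Dio3, Ascl2, Ppp1r9a and Asb4 are above the control MEFs on all treated arrays, and 17 genes fell in PGC.

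At the Dlk1-Meg3 cluster, Dio3 had the largest rise of the members in both treatments. Dio3 encodes the deiodinase that inactivates thyroid hormone. It was at -3.50, -3.79 and -3.60 in control MEFs, at -0.90, -0.23 and -0.36 in OS, and at 0.67, -1.36 and 0.20 in OCKS. No treated array came near the control arrays, although the OCKS arrays were spread over more than 2-fold among themselves. Dio3 rose by 3.14 in OS (8.81-fold, SE 0.411, adjusted p = 6.57e-05) and by 3.47 in OCKS (11.1-fold, SE 0.410, adjusted p = 2.92e-05).

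Dlk1, a transmembrane ligand related to the Notch ligands and made by fetal mesenchyme, was at 3.40, 3.95 and 3.96 in control MEFs, 4.31, 4.03 and 5.41 in OS, and 5.28, 5.83 and 5.44 in OCKS. All OCKS arrays were above the control arrays, and the OS arrays were above them by margins that differed widely. The rise in OCKS was 1.75 (3.35-fold, SE 0.324, adjusted p = 0.000711), and the change in OS, 0.81 (adjusted p = 0.0461), did not pass. The call in OCKS was lost when any array other than OS 2 or OS 3 was left out, with values of 1.56 to 1.86 and adjusted p of 0.00107 to 0.00428. Meg3, the non-coding RNA made from the maternal copy of the same cluster, changed by -0.59 in OS and -0.19 in OCKS and did not pass in either, although its dimmest probe fell in OS by 1.30 (adjusted p = 0.000652). Rtl1, a retrotransposon-derived placental gene, was well above background on 2 of 3 arrays at most in each group and was not tested.

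The Kcnq1 domain on chromosome 7 gave 1 rise and 1 fall of 7 members in OS, and 2 rises and 1 fall of 7 in OCKS. Of all genes tested, 10.9% rose and 12.8% fell in OS, and 11.3% and 14.1% in OCKS. Ascl2, a basic helix-loop-helix factor that placental trophoblast needs, was at -3.87, -3.73 and -3.79 in control MEFs, at -0.67, -0.60 and -0.80 in OS, and at -0.63, -1.17 and -0.53 in OCKS. The groups were far apart, with little spread within each. Ascl2 rose by 3.104 in OS (8.60-fold, SE 0.161, adjusted p = 9.59e-08) and by 3.02 in OCKS (8.10-fold, SE 0.161, adjusted p = 1.08e-07).

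Slc22a18, a transporter of the same domain, was at -1.22, -1.01 and -0.62 in control MEFs, -0.61, -0.58 and -0.47 in OS, and 0.14, -0.11 and 0.24 in OCKS. It rose in OCKS by 1.04 (2.06-fold, SE 0.153, adjusted p = 0.00014) and was 0.40 in OS. The OCKS arrays stood above those of both other MEF groups. The OCKS call was lost without MEF 1 (0.90) or without OCKS 3 (0.96). Tssc4, a splicing-related protein, fell in OS by 1.04 (2.06-fold, SE 0.0819, adjusted p = 1.74e-06) and was -0.96 in OCKS. Its arrays read 2.89, 2.98 and 3.05 in control MEFs, 1.96, 1.85 and 1.99 in OS, and 1.93, 2.12 and 2.01 in OCKS, so that the treated groups lay together and the call turned on the 2-fold limit, being lost without OS 2 (-0.998) and gained in OCKS without OCKS 2. Osbpl5, a lipid transfer protein, fell in OCKS by 1.10 (2.15-fold, SE 0.0961, adjusted p = 3.26e-06) and was -0.95 in OS, where it passed without MEF 2 (-1.005).

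Of the domain's other members, Cd81, a tetraspanin, changed by -0.32 in OS and -0.23 in OCKS. Tnfrsf23, a decoy receptor for the death ligand TRAIL, changed by -0.48 and -0.74. Kcnq1ot1, the paternal non-coding RNA whose promoter is the control region of the domain, changed by -0.19 in OS and 0.55 in OCKS. Phlda2, which restrains placental growth, was well above background on 2 of 3 arrays in each MEF group and was not tested between them. None of these values passed the thresholds.

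In the Peg10 domain of chromosome 6, 2 of 4 members rose and 1 fell in each treatment. Of all genes tested, 10.9% rose and 12.8% fell in OS, and 11.3% and 14.1% in OCKS. Ppp1r9a (neurabin), an actin-binding scaffold that targets protein phosphatase 1, was at -3.92, -3.95 and -3.95 in control MEFs. It was at -1.95, -1.92 and -1.97 in OS and at -1.60, -1.77 and -1.49 in OCKS. All treated arrays lay above the control arrays, and the control arrays were nearly equal. The rise was 2.00 in OS (3.99-fold, SE 0.0902, adjusted p = 4.03e-08) and 2.32 in OCKS (5.001-fold, SE 0.0902, adjusted p = 1.43e-08).

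Asb4, a subunit of a ubiquitin ligase, was at -2.68, -2.75 and -2.62 in control MEFs, -0.77, -1.09 and -0.91 in OS, and -0.85, -1.14 and -0.83 in OCKS. All treated arrays lay above the control arrays. Asb4 rose by 1.76 in OS (3.38-fold, SE 0.219, adjusted p = 4.65e-05) and by 1.74 in OCKS (3.34-fold, SE 0.219, adjusted p = 4.62e-05), but its second probe changed by 0.05 and -0.12. Sgce, a sarcoglycan of the cell membrane whose promoter lies in the control region with that of Peg10, was at 1.68, 1.78 and 1.70 in control MEFs, 0.81, 0.34 and 0.61 in OS, and 0.56, 0.58 and 0.53 in OCKS. All of its treated arrays lay below the control arrays. Sgce fell by 1.13 in OS (2.19-fold, SE 0.118, adjusted p = 1.24e-05) and by 1.16 in OCKS (2.24-fold, SE 0.118, adjusted p = 9.51e-06). Peg10, a retrotransposon-derived gene that placenta needs, shares that control region and had the opposite sign, 1.15 in OS and 0.83 in OCKS, without passing the thresholds.

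The Snrpn domain of chromosome 7 gave 1 rise and 1 fall of 6 members in OS, and 0 rises and 1 fall of 6 in OCKS. Of all genes tested, 10.9% rose and 12.8% fell in OS, and 11.3% and 14.1% in OCKS. Peg12, a paternally expressed gene of a family that binds GSK3, was at -0.81, -0.71 and -1.01 in control MEFs, -1.71, -1.84 and -1.99 in OS, and -2.26, -1.73 and -2.02 in OCKS. It fell by 1.003 in OS (2.004-fold, SE 0.139, adjusted p = 0.000101), a call lost without MEF 1 (-0.99), MEF 2 (-0.93) or OS 3 (-0.93), and by 1.16 in OCKS (2.23-fold, SE 0.139, adjusted p = 3.29e-05). Mkrn3, a ubiquitin ligase that holds back puberty, was at -5.20, -4.72 and -5.17 in control MEFs, -4.29, -3.77 and -3.71 in OS, and -3.96, -4.31 and -4.26 in OCKS. All treated arrays were above the control arrays. Mkrn3 rose by 1.10 in OS (2.15-fold, SE 0.176, adjusted p = 0.000267) and was 0.85 in OCKS. The OS call was lost without MEF 1 (1.02), MEF 3 (1.04), OS 2 (1.03) or OS 3 (0.997), where the adjusted p was 0.00145 to 0.00178, and Mkrn3 passed in OCKS without MEF 2 (1.01). Snrpn, a component of the spliceosome, changed by -0.34 in OS and -0.74 in OCKS, and Ndn (necdin), which restrains the cell cycle in neurons, by -0.47 and -0.79. Magel2, a partner of ubiquitin ligases, changed by -0.19 and -0.37, and Ube3a, the ubiquitin ligase whose paternal copy is silent in neurons, by -0.40 and -0.42.

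Among genes of the insulin-like growth factor pathway, Igf2 fell in OS, Grb10 fell in both treatments, and Igf2r did not pass. Igf2, the insulin-like growth factor made from the paternal copy, was at 2.04, 1.75 and 1.32 in control MEFs, 0.15, -0.24 and 0.15 in OS, and 0.77, 0.82 and 0.64 in OCKS. Both treated groups lay below the control arrays. Igf2 fell by 1.69 in OS (3.22-fold, SE 0.234, adjusted p = 9.93e-05), and its change in OCKS, -0.96 (adjusted p = 0.00386), did not pass. Igf2r, the receptor that clears that factor, was higher on every treated array than on any control array, at 3.16, 3.21 and 3.39 in control MEFs, 3.79, 3.99 and 3.95 in OS, and 3.81, 3.86 and 4.19 in OCKS. Its changes, 0.65 and 0.70, were under 2-fold. Airn, the paternal RNA antisense to Igf2r, changed by 0.11 in OS and 0.69 in OCKS, and the sources used here do not say whether its probes distinguish overlapping transcripts.

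Grb10, an adaptor that dampens insulin and IGF receptor signalling, was at 1.23, 1.04 and 0.90 in control MEFs. It was at -0.28, -0.55 and -0.61 in OS and at -0.35, -0.03 and -0.53 in OCKS. The treated arrays lay below the control arrays without overlap. Grb10 fell by 1.54 in OS (2.90-fold, SE 0.139, adjusted p = 4.61e-06) and by 1.36 in OCKS (2.57-fold, SE 0.139, adjusted p = 1.03e-05). Gnas, whose main product is the stimulatory G protein subunit, was at 6.32, 6.29 and 6.34 in control MEFs, 5.37, 5.27 and 5.23 in OS, and 5.38, 5.11 and 5.12 in OCKS. The treated groups lay together, below the control arrays. Gnas fell by 1.03 in OS (2.04-fold, SE 0.0979, adjusted p = 6.51e-06), a call lost without OS 3 (-0.9998), and by 1.12 in OCKS (2.17-fold, SE 0.0979, adjusted p = 3.38e-06). Under spike-in scaling the OS values of the genes that fell were -0.99 for Zrsr1, -0.89 for Igf2, -0.74 for Grb10, -0.34 for Sgce, -0.24 for Tssc4, -0.23 for Gnas and -0.21 for Peg12, none past the thresholds.

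**Figure D2:**
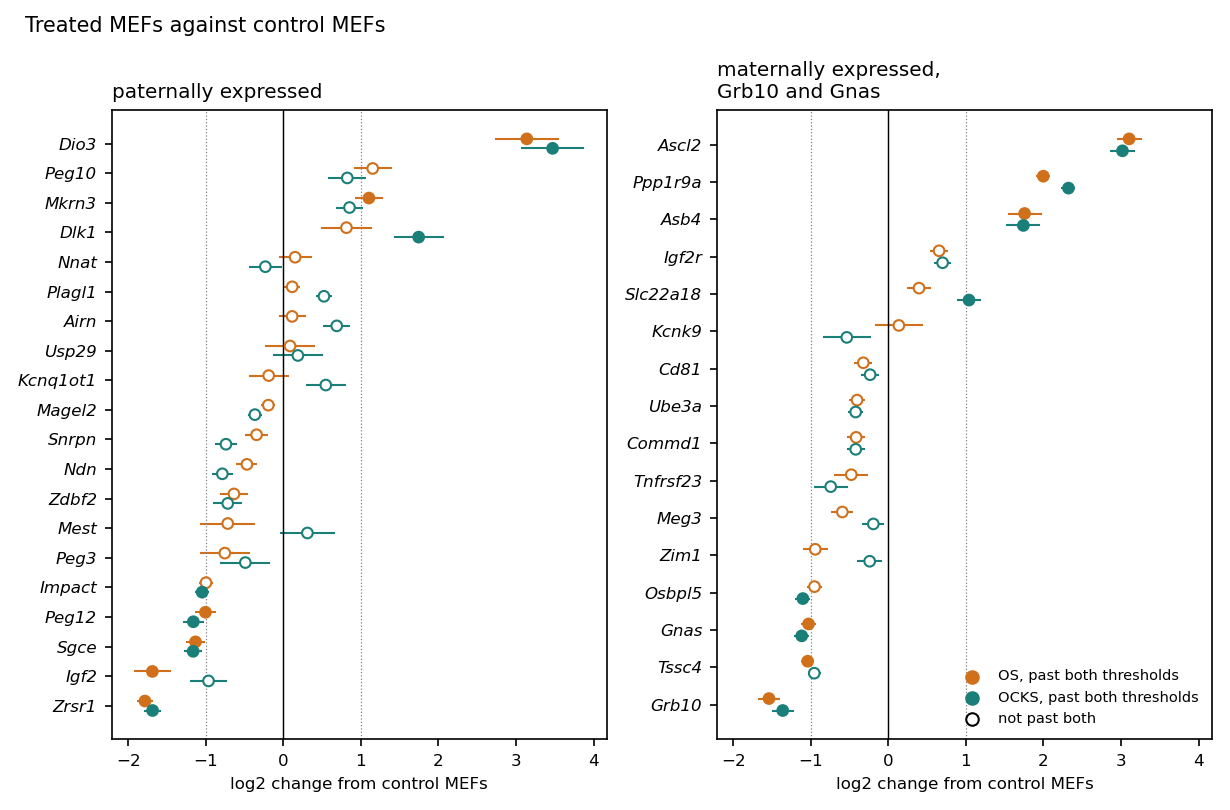
Log2 change of each imprinted gene tested against control MEFs in OS and in OCKS, with the standard error as bars and dotted lines at 2-fold; filled points passed the thresholds. Ascl2 and Dio3 lie about 3 log2 units above 0 in both treatments, and most other genes lie between the dotted lines.

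At 12 members the paternal transcript starts at or beside a control region that is methylated on the maternal copy. None of the 12 rose in either treatment, where 10.9% of all genes rose in OS and 11.3% in OCKS. At an unadjusted p under 0.05 with limma, 1 was higher and 5 lower in OS, and 3 were higher and 4 lower in OCKS. Zrsr1 and Sgce fell in OS, and Zrsr1, Sgce and Impact fell in OCKS. The median change of the 12 was -0.27 in OS and -0.02 in OCKS. Those not called ranged from -0.996 (Impact) to 1.15 (Peg10) in OS and from -0.74 to 0.83 in OCKS. The upper end of the 95% interval of the change lay under 2-fold for 11 of the 12 in OS, all but Peg10, and for 8 of the 12 in OCKS, all but Airn, Kcnq1ot1, Mest and Peg10. Under spike-in scaling the numbers were 5 and 6 of 12, and 1 of the 12, Peg10, rose in OS.

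Zrsr1, a splicing factor gene copied by retrotransposition into an intron of Commd1, was at -0.01, 0.21 and 0.13 in control MEFs. It was at -1.63, -1.82 and -1.57 in OS, at -1.45, -1.68 and -1.60 in OCKS, and at -1.29, -1.07 and -1.23 in PGC. Every other array was below every control array. Zrsr1 fell by 1.78 in OS (3.44-fold, SE 0.105, adjusted p = 2.29e-07) and by 1.68 in OCKS (3.21-fold, SE 0.105, adjusted p = 3.12e-07). Commd1, the copper-handling gene around it, changed by -0.41 and -0.42 and did not pass.

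Impact, an inhibitor of the stress kinase GCN2, was at 3.70, 3.52 and 3.73 in control MEFs, 2.64, 2.65 and 2.68 in OS, and 2.63, 2.63 and 2.56 in OCKS. The treated groups lay together, below the control arrays. Impact fell by 1.05 in OCKS (2.06-fold, SE 0.0914, adjusted p = 3.32e-06). In OS it changed by -0.996, just under 2-fold (adjusted p = 5.04e-06), and passed without MEF 2 (-1.06) or without OS 3 (-1.01). Mest, a hydrolase-like protein of mesenchyme, changed by -0.72 in OS and 0.31 in OCKS. Peg3, a zinc finger protein, changed by -0.75 and -0.49, and its neighbour Usp29, a deubiquitinase, by 0.09 and 0.19. Plagl1, a zinc finger factor, changed by 0.12 and 0.52, and Nnat (neuronatin), a small membrane protein, by 0.15 and -0.23. None of these last 5 passed in either treatment.

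Outside the control regions, Zim1, a maternally expressed zinc finger gene of the Peg3 domain, changed by -0.94 in OS and -0.24 in OCKS, and passed in OS without OS 3 (-1.05). Zdbf2, a paternally expressed zinc finger gene, changed by -0.64 and -0.72. Kcnk9, a potassium channel, changed by 0.14 and -0.54. Calcr, the calcitonin receptor, was well above background on 2 control arrays and no treated array, and was not tested between MEF groups.

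**Figure D3:**
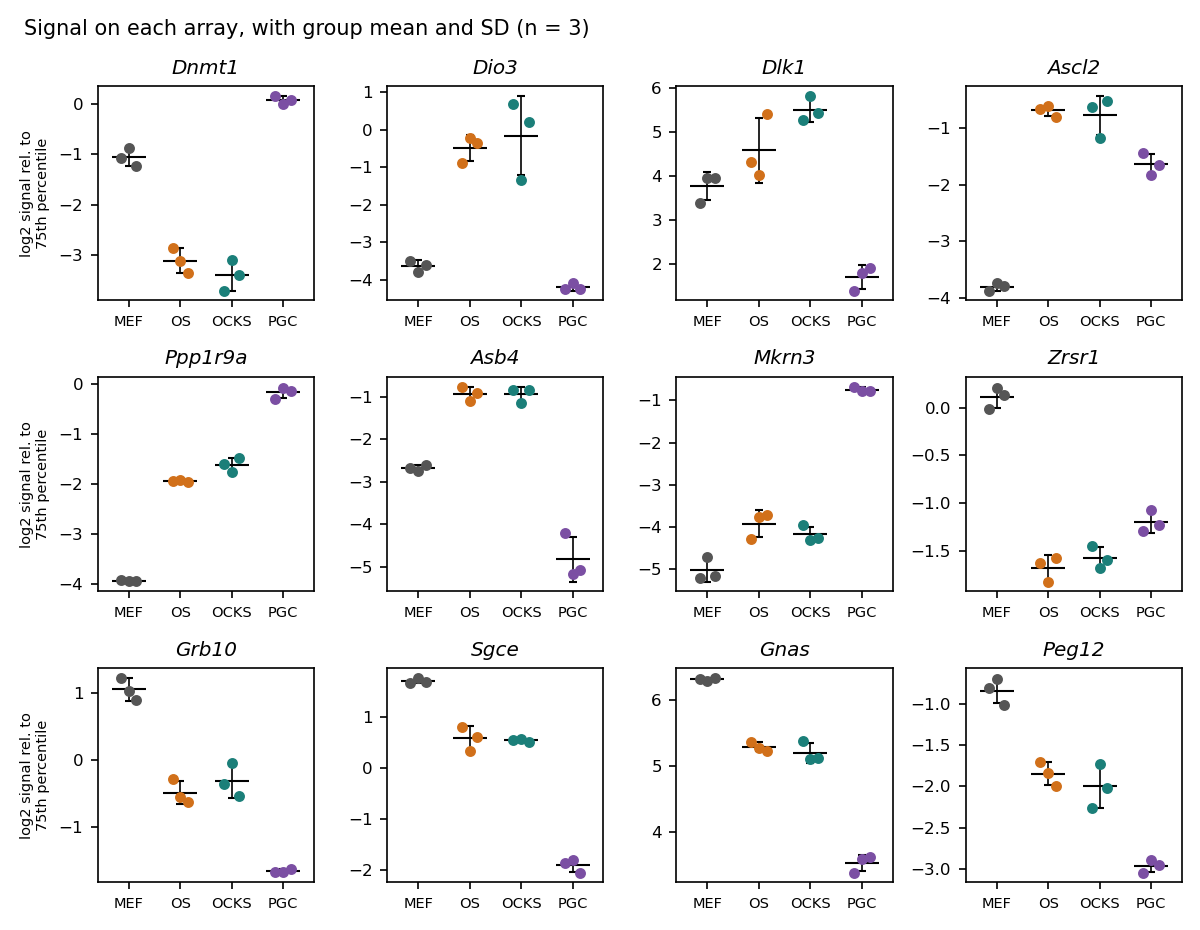
Log2 level on each array for Dnmt1 and imprinted genes of the text, relative to the array's 75th percentile, with 1 point per array in the control MEF, OS, OCKS and PGC groups, a line at the group mean and bars of 1 SD (n = 3). Ascl2 and Ppp1r9a are higher on all treated and PGC arrays than on control arrays, whereas Dio3 and Asb4 are higher on the treated arrays only.

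OCKS and OS differ in Klf4 and c-Myc and also in the vectors, a tandem construct against separate Oct4 and Sox2 vectors, and these differences cannot be told apart. The signal of the Pou5f1 (Oct4) probe averaged -1.14 in OS and -6.09 in OCKS. None of the 36 members tested rose or fell, and of 15685 genes 0% rose and 0% fell. Over all genes, 9 rose and 33 fell without OS 3, and 0 rose and 12 fell with spike-in scaling. No member passed in either of these alternatives. With limma, 12 members had an unadjusted p under 0.05 and none an adjusted p under 0.05. Over all genes 2870, or 18.3%, had an unadjusted p under 0.05, and 26 an adjusted p under 0.05. Zim1 had the lowest adjusted p of the members, 0.0890, at 0.70 higher in OCKS (95% interval 0.35 to 1.05). Mest had the largest positive difference, 1.03 (95% interval 0.25 to 1.80), and Kcnk9 the largest negative, -0.67 (95% interval -1.35 to 0.01).

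Slc22a18 and Dlk1, which rose in OCKS and not past the thresholds in OS, differed between the treatments by 0.64 (95% interval 0.31 to 0.98) and 0.93 (95% interval 0.22 to 1.65). Igf2, which fell in OS and did not pass in OCKS, differed by 0.72 (95% interval 0.21 to 1.24). Ascl2 differed by -0.09 (95% interval -0.44 to 0.27) and Dio3 by 0.33 (95% interval -0.57 to 1.24). For 29 of the 36 members the whole 95% interval lay within 2-fold in either direction. On the slide that held OS 1 and OCKS 1, 27 of 36 members had the sign of the pooled difference, and the value moved by up to 1.24. Both arrays are part of the pooled difference, so the count is no independent check.

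Female PGC at E15.5 were compared with the same control arrays as the treated MEFs. Against control MEFs 5 of 38 members tested rose and 17 fell, where 30.3% of the 17347 genes tested rose and 26.1% fell. Every member that fell in OS or in OCKS also fell in PGC. Of those that rose in a treatment, Ascl2, Ppp1r9a and Mkrn3 also rose in PGC, Asb4 and Dlk1 fell, and Dio3 and Slc22a18 did not pass. The median change was -0.89 over the members and 0.22 over all genes. Among the paternally expressed members 2 of 20 rose and 9 fell (median -1.09), and among the maternally expressed 3 of 16 rose and 6 fell (median -0.30). Of the 12 control-region members 0 rose and 5 fell (median -1.09). At an unadjusted p under 0.05 with limma, 2 of them were higher and 8 lower. With arrays scaled on their median, 4158 genes were higher and 5392 lower in PGC, and with spike-in scaling 4127 and 5181, against 5252 and 4534 with the 75th percentile. The 8 fibroblast markers fell in the same comparison, and their part in the members' falls was not tested.

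Mkrn3 was at -0.68, -0.78 and -0.79 in PGC, far above every MEF array given earlier, and rose by 4.28 (19.4-fold, SE 0.177, adjusted p = 2e-09). Ppp1r9a was at -0.30, -0.08 and -0.15, above both treated groups as well as the control arrays, and rose by 3.77 (13.6-fold, SE 0.0908, adjusted p = 4.86e-11). Zdbf2 was at -4.33, -4.31 and -4.54 in control MEFs and at -0.80, -0.93 and -1.03 in PGC, and rose by 3.47 (11.1-fold, SE 0.188, adjusted p = 1.71e-08). These 3 genes had no overlap between the groups, as had 34 of the 39 members with a probe. The share over all genes was not computed. Ascl2 was at -1.45, -1.83 and -1.65, between the control and the treated MEFs, and rose by 2.15 (4.45-fold, SE 0.162, adjusted p = 2.76e-07). Ube3a was at -0.44, -0.35 and -0.48 in control MEFs and 0.95, 0.77 and 0.94 in PGC, and rose by 1.31 (2.48-fold, SE 0.101, adjusted p = 3.38e-07). The Ube3a call was lost with arrays scaled on their median (0.92) or on spike-ins (0.97).

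The largest changes in PGC were falls. Tnfrsf23 was at 2.83, 2.96 and 2.82 in control MEFs and at -5.07, -4.66 and -5.08 in PGC, and fell by 7.81 (224-fold, SE 0.222, adjusted p = 1.34e-10). The other probe of Tnfrsf23 changed by -3.70 (adjusted p = 1.97e-07), a smaller fall that also passed. The neighbouring Osbpl5 was at 4.52, 4.37 and 4.53 and at -1.82, -1.54 and -1.86, and fell by 6.21 (74.1-fold, SE 0.0968, adjusted p = 4.72e-12). Both were well above background in PGC, and no array of PGC came near a control array. Cd81, also of the Kcnq1 domain, fell by 3.73 (13.3-fold, SE 0.116, adjusted p = 2.25e-10) and Tssc4 by 1.17 (2.25-fold, SE 0.0824, adjusted p = 1.53e-07). Kcnq1ot1, the RNA of that domain's control region, was 1.16 higher in PGC and did not pass, although it did without MEF 2 (1.37) or without OS 1 (1.16), and Slc22a18 changed by -0.08.

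Igf2 was at -2.38, -3.25 and -3.06 in PGC, below all MEF arrays, and fell by 4.60 (24.2-fold, SE 0.236, adjusted p = 1.12e-08). Plagl1 was at 3.86, 3.94 and 3.71 in control MEFs and -0.65, -0.54 and -0.37 in PGC, and fell by 4.36 (20.5-fold, SE 0.107, adjusted p = 5.23e-11). Impact was at -0.63, -0.37 and -0.60 in PGC and fell by 4.18 (18.1-fold, SE 0.0920, adjusted p = 2.87e-11). In each of these genes the groups stood clear of each other. Meg3 was at 4.20, 4.32 and 4.08 in control MEFs and -0.19, 0.11 and 0.19 in PGC, and fell by 4.16 (17.9-fold, SE 0.142, adjusted p = 4.65e-10). Dlk1 of the same cluster was at 1.40, 1.80 and 1.91 in PGC and fell by 2.07 (4.20-fold, SE 0.328, adjusted p = 0.000137). Dio3, which rose in the treated MEFs, was at -4.25, -4.09 and -4.26 in PGC and changed by -0.57.

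The other falls were Sgce by 3.62 (12.3-fold), Ndn by 3.39 (10.5-fold), Gnas by 2.79 (6.92-fold), Grb10 by 2.70 (6.51-fold), Asb4 by 2.14 (4.42-fold), Peg12 by 2.12 (4.35-fold), Zrsr1 by 1.30 (2.47-fold) and Snrpn by 1.23 (2.34-fold). Their SE ran from 0.0986 to 0.221 and their adjusted p from 3.46e-10 to 1.23e-05. In the Snrpn domain, then, 2 of 6 members rose and 3 fell, where 30.3% of all genes rose and 26.1% fell. Magel2 changed by 0.96 and passed without PGC 2 (1.04). In the Peg3 domain no member passed, with Peg3 at 0.06, Usp29 at 0.88 and Zim1 at -0.83. Igf2r changed by -0.52, Airn by -0.05 and Peg10 by -0.95, none past the thresholds. Mest changed by -1.68 (adjusted p = 0.00115), which did not pass, but it passed under 11 of 28 alternatives, among them array median and spike-in scaling and leaving out OS 3, OCKS 1 or OCKS 2, and its other probes fell by 2.13 (adjusted p = 9.88e-05) and 2.11 (adjusted p = 0.000122). Phlda2 changed by 1.60, Calcr by 1.31, Commd1 by 0.65, Nnat by -0.81 and Kcnk9 by 0.29, and none of these passed.

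**Figure D4:**
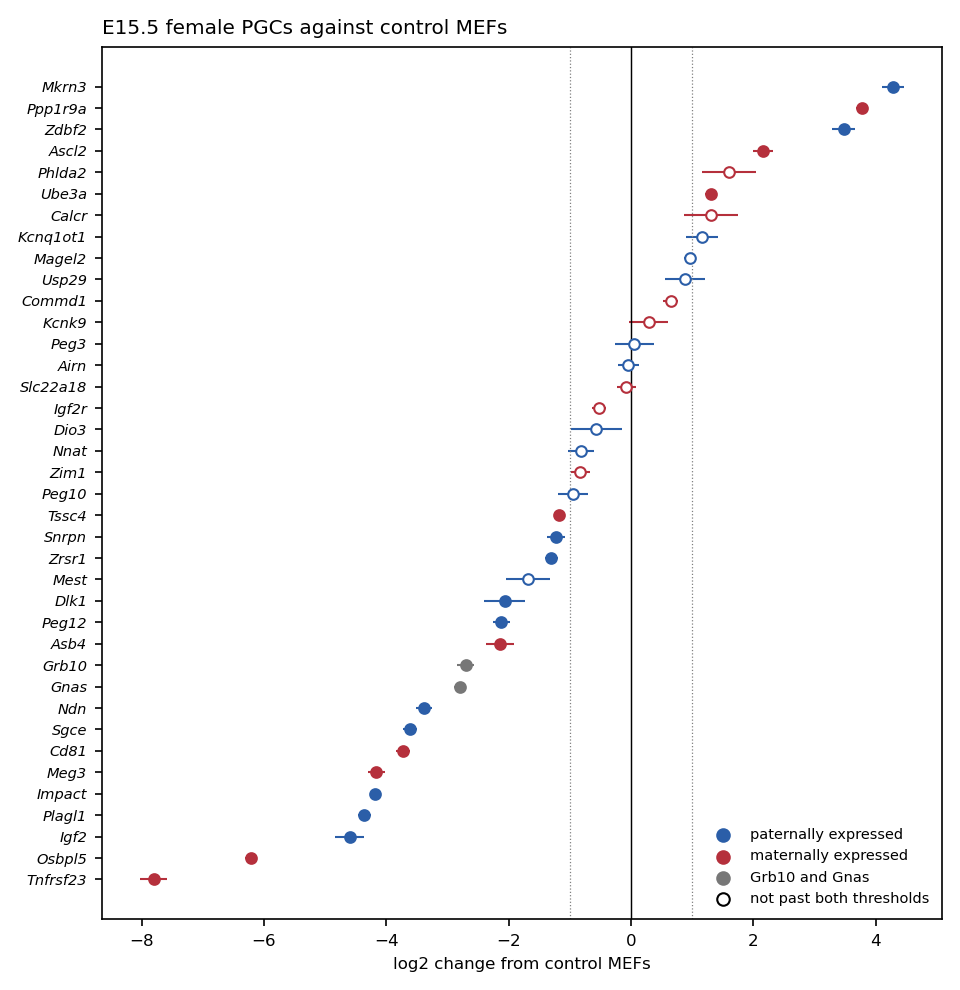
Log2 change of each imprinted gene tested in PGC against control MEFs, with the standard error as bars and dotted lines at 2-fold, coloured by the parental copy expressed; filled points passed the thresholds. Tnfrsf23 and Osbpl5 are lowest, at -7.81 and -6.21, and Mkrn3 is highest, at 4.28.

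A slide held MEF 2, MEF 3, PGC 2 and PGC 3, so this comparison could be read within it. There all 22 members past the thresholds had the sign of the pooled value, and none moved by more than 0.31. The arrays of the slide are part of the pooled value that chose the 22, so this agreement is no independent check. Of the 16 others, 15 had the same sign. With slide as a fixed block, 2 members lost their call, Dlk1 (-2.10, adjusted p = 0.00394) and Snrpn (-1.25, adjusted p = 0.00171).

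For 19 members more than 1 probe was present, and at some loci the probes gave different answers. Mkrn3 gave 1.10, 0.85 and 4.28 in OS, OCKS and PGC on the brightest probe and 1.16, 0.97 and 4.65 on the other. Dlk1 gave 0.81, 1.75 and -2.07 against 1.10, 1.95 and -2.66, where 1.95 did not pass. In these genes the probes had the same sign. The other probe of Ppp1r9a was not well above background on any control array, and was at least 3.46-fold higher in OS, 3.16-fold in OCKS and 27.9-fold in PGC. Meg3 gave -0.59, -0.56 and -1.30 in OS on its 3 probes, and Zim1 -0.94 and -1.21, of which -1.30 and -1.21 passed. Asb4 gave 1.76, 1.74 and -2.14 against 0.05, -0.12 and 0.49, and Gnas -1.03, -1.12 and -2.79 against -0.47, 0.23 and 0.96. Plagl1 gave -4.36, -4.23, 1.86 and -0.16 in PGC on its 4 probes, and of these 1.86 rose past the thresholds (adjusted p = 1.31e-07). Airn gave -0.05 and -4.92 in PGC, the latter with an adjusted p of 4.39e-09 and 1 of 3 PGC arrays well above background. Snrpn gave -1.23, -0.55 and 0.84 in PGC on its 3 probes, of which only -1.23 passed. Peg3 gave -0.75 and -0.49 in OS and OCKS against 0.44 and 0.50 on its other probe, none past the thresholds. The other probe of Peg12 gave -0.31, -0.29 and -0.43 in OS, OCKS and PGC, and did not pass. Which transcripts a probe detects was not tested. With the mean of a gene's probes in place of the brightest, Asb4 and Gnas lost their calls in all 3 comparisons, Peg12 in OS and OCKS, and Snrpn in PGC.

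**Figure D5:**
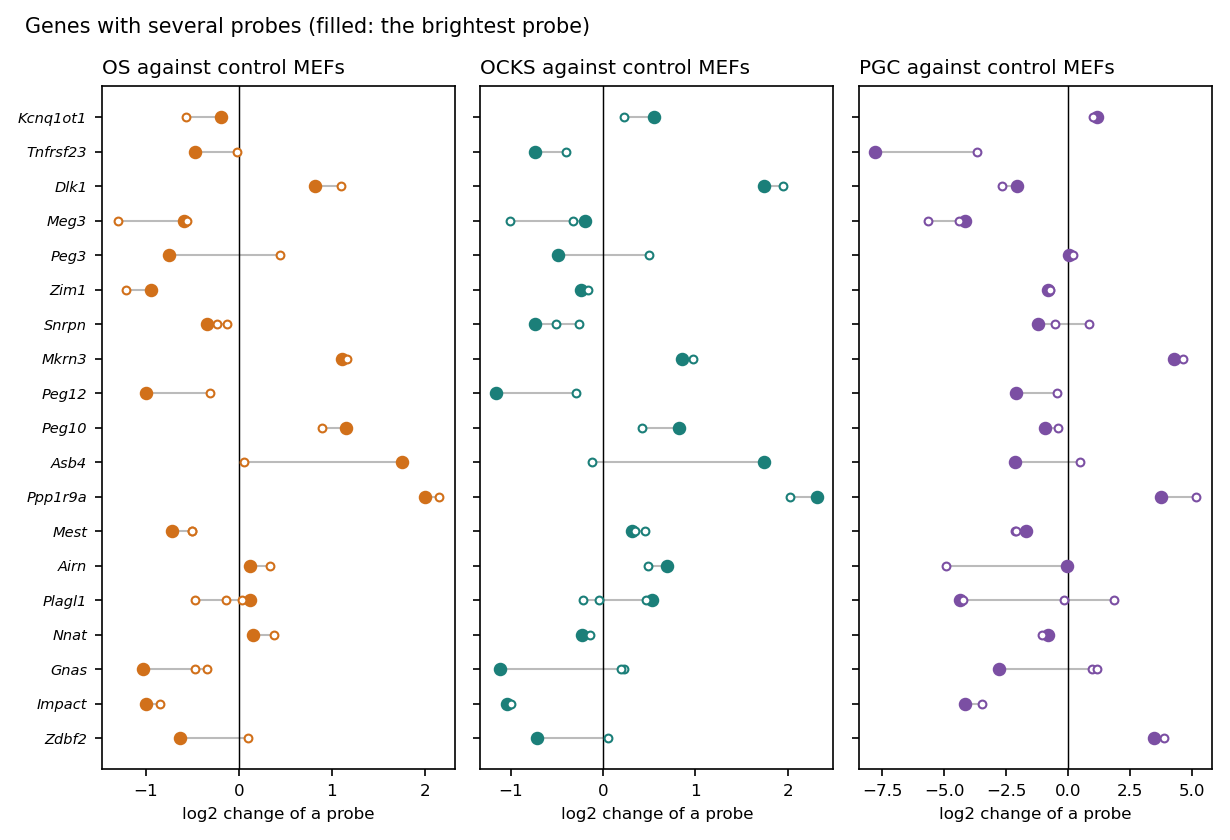
Log2 change of every probe of imprinted genes with several probes, in OS, OCKS and PGC against control MEFs, with the brightest probe filled. The other probe of Ppp1r9a is at background in control MEFs, and its points lie above the lower bounds of 3.46-fold in OS, 3.16-fold in OCKS and 27.9-fold in PGC. The dimmest Gnas probe was not tested. The probes of Mkrn3 and Dlk1 lie close together, and those of Asb4, Gnas, Plagl1, Airn, Snrpn and Tnfrsf23 are among those that lie apart in a panel.

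Of 32 further imprinted genes, 31 had a probe. In OS 4 of 27 tested rose and 6 fell (median -0.33), in OCKS 5 of 27 rose and 7 fell (median -0.34), and in PGC 6 of 29 rose and 12 fell (median -0.39). Over all genes 10.9% rose and 12.8% fell in OS, 11.3% and 14.1% in OCKS, and 30.3% and 26.1% in PGC. Ampd3, an AMP deaminase, rose by 4.56 in OS and 3.96 in OCKS, and Dcn (decorin), a matrix proteoglycan, by 2.63 and 2.23. Cdkn1c, the cyclin-dependent kinase inhibitor of the Kcnq1 domain, rose by 1.84 in OS and 2.34 in OCKS. Tfpi2, a protease inhibitor of placenta, fell by 3.09 in OS and, with 1 of 3 arrays well above background, by 3.76 in OCKS, and was not well above background on any PGC array, at least 25.6-fold lower than in control MEFs (adjusted p = 1.01e-10).

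Of 18 regulators of imprints with a probe, 0 rose and 3 fell in each treatment, and 10 rose and 1 fell in PGC, beside those same shares over all genes. At an unadjusted p under 0.05 with limma, 5 were higher in OS and 4 in OCKS, and under spike-in scaling 6 rose in OS and 1 in OCKS. The 3 were Dnmt1, Zfp57 and Tet3, a dioxygenase that oxidises methylated cytosine. Zfp57 was at -1.59, -1.49 and -1.74 in control MEFs, -3.68, -3.87 and -4.08 in OS, and -3.49, -4.01 and -4.03 in OCKS, with all treated arrays below all control arrays. Zfp57 fell by 2.27 in OS (SE 0.170, adjusted p = 1.22e-06) and by 2.23 in OCKS, and Tet3 by 1.98 in OS (adjusted p = 1.1e-06) and by 1.74 in OCKS. In PGC the largest rises were of Hells, a chromatin remodeller that DNA methylation needs, by 5.43, Dppa3, which protects maternal methylation in the zygote, by 5.42, Ctcfl, a germ cell relative of CTCF, by 4.33, and Setdb1, an H3K9 methyltransferase, by 3.84. Ehmt2 (G9a), the H3K9 methyltransferase that BIX-01294 inhibits, fell by 1.04 in PGC.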

How the data were processed

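RNA of 12 samples was hybridised, labelled with Cy3, to single-colour Agilent mouse arrays. The authors deposited Feature Extraction scanner files, whose processed intensity is background-subtracted, and a log2 value table of unstated normalization, of which 10 of 12 columns matched their array's scanner values. That table was used as an alternative only. Groups came from the sample labels, and 0 columns of the deposited tables lacked a sample.

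From 39429 non-control probes, 92 flagged as uneven were left out. The other 39337 were set to log2 intensity minus the array's 75th percentile over probes. Through RefSeq accessions 25983 were named, to 19711 genes, and 13354 were not. The brightest probe by mean over all arrays stood for a gene. All 12 arrays were fitted in limma 3.58.1 (R 4.3.3) with 4 groups and no covariate. Summaries used pandas 2.3.3 and numpy 2.4.6 under Python 3.11.15, and plots matplotlib 3.10.9. The fit was tested on simulated data. A figure legend of the paper gives 2-fold and a p under 0.001, without calling that p adjusted. The methods name Benjamini-Hochberg correction but no test. The number of arrays limits the precision, and no spot was used as a count.

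All members were named, with statistics for those past the thresholds, and of other imprinted genes and regulators up to 4 per comparison with the largest changes. The members and lists were chosen with earlier results of these data known. Alternatives changed the scaling, background correction, probe, filter, threshold, slide or replicate block, groups fitted, source of the values and arrays.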

Additional observations from a re-analysis of the deposited data

How the results depend on the processing

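With a value per gene, no called member changed sign under any alternative. With each probe as a feature, Plagl1, which fell in PGC, also had a probe that rose, and probes of Asb4, Gnas and Snrpn had opposite signs. Of the members called, 3 of 12 in OS (Dio3, Ascl2 and Ppp1r9a), 4 of 13 in OCKS (Ascl2, Ppp1r9a, Zrsr1 and Grb10) and 17 of 22 in PGC kept the call under every alternative run. The counts that moved by more than 1.5 times were these. Of 7 falls in OS, 4 remained with quantile normalization, with normexp (offset 50) and quantile normalization, with the 75th percentile taken over detected probes only and with array median scaling, and 0 with spike-in scaling, which raised the rises from 5 to 9. Of 7 falls in OCKS, 4 remained with quantile normalization, 4 with normexp and quantile normalization, and 2 with spike-in scaling. With an adjusted p under 0.05 and no minimum fold, rises and falls were 9 and 16 in OS, 11 and 16 in OCKS, and rises 11 in PGC. Leaving out each array in turn gave 4 to 5 rises and 6 to 8 falls in OS, 4 to 6 and 7 to 8 in OCKS, 5 to 6 and 17 to 18 in PGC, and 0 between OCKS and OS. The mean of a gene's probes ended the calls of Asb4 and Gnas in all 3 comparisons with control MEFs, of Peg12 in OS and OCKS, and of Snrpn in PGC.

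Replicate numbers were not used as pairs in the main fit. Correlations of same-numbered deviations ran from -0.34 to 0.51, which with 3 arrays per group does not settle whether arrays were paired. The replicate block gave 6 rises and 7 falls in OS, 6 and 7 in OCKS, 6 and 17 in PGC, and 0 between OCKS and OS. Slide as a random block (consensus correlation 0.210) gave 5 and 6 in OS, 5 and 7 in OCKS, and 5 and 18 in PGC, losing Peg12 in OS (-0.96) and Dlk1 in OCKS (1.80). Slide as a fixed block could not be fitted for treated against control MEFs. The cause of these moves was not tested. Low signal limits Rtl1, Phlda2 and Calcr, which were not well above background on all arrays of any MEF group.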
